A study of Homo sapiens with 6 samples.

Results

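The genes described here are 10 transcripts of the ATF4 stress response and of serine synthesis, taken by gene symbol from a deposited table of 60843 genes. They are ATF4, DDIT3, TRIB3, SESN2, DDIT4, ASNS, PHGDH, PSAT1, PSPH and SHMT2, and all 10 were in the table and passed the expression filter (a mean of at least 0.5 FPKM) that left 14791 genes for testing. RNA came from a liposarcoma line of human origin, SW872-S, and was sequenced as 2 groups with 3 libraries each. In TP53INP2_OE the cells carried a plasmid for overexpression of TP53INP2, a regulator of autophagosome formation. NC is the comparison group of the same line, by an abbreviation that the labels do not spell out. What NC cells carried, how long the plasmid was expressed and whether either group is 1 clone were not given in the sources used here. Separate cell sources are mentioned in the design text without being named, so a difference in source and the plasmid cannot be told apart. The study is concerned with TP53INP2, mitophagy and dedifferentiated liposarcoma; the comparison made here asks how the RNA of this stress and amino acid program differed between the groups.

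ATF4 is a bZIP transcription factor whose protein is made mainly when the initiation factor eIF2 is phosphorylated by one of its stress kinases, so that much of its control lies in translation and is not seen in RNA. Once made, ATF4 raises genes for amino acid uptake, asparagine synthesis and serine synthesis, and also its own feedback factors DDIT3 (CHOP) and TRIB3. Serine is made from a glycolytic intermediate in a chain of 3 enzymes, PHGDH, PSAT1 and PSPH, and SHMT2 then passes a carbon unit from serine to folate in mitochondria, leaving glycine. Many tumours depend on this chain, and PHGDH catalyses its committed step.

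TP53INP2 itself was at 10.6, 9.45 and 9.67 FPKM in the NC libraries and at 18.9, 23.4 and 27.1 FPKM in the TP53INP2_OE libraries, so all libraries matched their labels. FPKM counts fragments relative to gene length and to the size of the library. Levels and ratios between genes therefore depend on the length listed for each gene, such as 9217 bases for PHGDH, 2206 for PSAT1 and 2762 for PSPH. Whether these lengths fit the transcripts of these cells was not tested. Comparisons of a gene between the groups use the same length. The libraries held 16038062 to 17607612 reads assigned to genes. Of 9 mesenchymal and liposarcoma markers, 7 were above 1 FPKM, while none of the haematopoietic, epithelial and mature adipocyte markers was. The endothelial markers CDH5 and PECAM1 also exceeded 1 FPKM, and the summed endothelial list lay between 32.0 and 39.1 FPKM in all 6 libraries. The labels do not say whether replicates were separate cultures, so p-values reflect only how far these libraries vary, a variation that may be technical. In bulk RNA, fewer cells of a type and less RNA per cell cannot be told apart.

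Promoter stretches of 4 members are shown first, because these are the genes whose levels the results contrast. Among the members with an annotated start, only ASNS had a match to the ATF4 response motif in the 250 bases before one. PHGDH and PSAT1 are successive enzymes that behaved differently, and DDIT4 fell with PHGDH. The stretches are the 150 bases before an annotated start, from RefSeq on GRCh38.p14, where 8 of the 10 members had an entry (SHMT2 and PSPH had none). For ASNS, 1 of its 2 annotated starts is shown, the one with the motif. Capitals mark matches, on either strand, to TGATGNAA, the core of the motif bound by ATF4 with C/EBP proteins, and to CCAAT, the motif of the factor NF-Y.

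ASNS (chr7:97872409-97872558, minus strand): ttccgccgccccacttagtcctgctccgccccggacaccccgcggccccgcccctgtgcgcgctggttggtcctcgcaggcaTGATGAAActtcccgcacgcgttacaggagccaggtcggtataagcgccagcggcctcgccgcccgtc
DDIT4 (chr10:72273774-72273923, plus strand): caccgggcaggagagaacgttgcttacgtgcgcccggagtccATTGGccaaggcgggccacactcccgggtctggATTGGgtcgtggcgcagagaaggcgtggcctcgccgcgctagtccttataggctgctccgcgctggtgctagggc
PHGDH (chr1:119711784-119711933, plus strand): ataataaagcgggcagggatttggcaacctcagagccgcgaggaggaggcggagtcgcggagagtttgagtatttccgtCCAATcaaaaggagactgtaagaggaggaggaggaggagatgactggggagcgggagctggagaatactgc
PSAT1 (chr9:78296975-78297124, plus strand): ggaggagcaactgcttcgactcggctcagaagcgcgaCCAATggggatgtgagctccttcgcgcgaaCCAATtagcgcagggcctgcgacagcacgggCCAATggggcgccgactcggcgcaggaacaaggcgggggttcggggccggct

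In the 250 bases before a start, TGATGNAA occurred in 3.14% of 35116 RefSeq windows, and among the members only before this start of ASNS, where its first base is at -68 counted from the base before the start as -1. CCAAT occurred in 32.0% of windows. Among the members it was found in those of DDIT3, SESN2, DDIT4, PHGDH and PSAT1, with 3 copies in PSAT1 and 1 in PHGDH. No window of a member held both motifs, so their matches do not overlap. The cyclic AMP response element, TGACGTCA, was in 1.65% of windows and in none of the members'. Both strands were searched for each motif. These matches describe letters in the reference and not binding. Sequence outside these windows, and any before SHMT2 and PSPH, was not searched, so a member without a match may hold the motif elsewhere.

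The levels of the 10 genes spanned a wide range in these cells. PSAT1 was the most abundant at 119 FPKM (mean over 6 libraries), above 98.1% of tested protein-coding genes, followed by ATF4 at 102, TRIB3 at 90.5 and DDIT4 at 86.4 FPKM. In the NC libraries the range of PSAT1 overlapped that of ATF4, and DDIT4, the most spread of the 4, overlapped both ATF4 and TRIB3, while TRIB3 lay below ATF4 and PSAT1 in every library pair. SHMT2 followed at 35.6 FPKM, and PSPH, PHGDH, DDIT3 and SESN2 lay between 7.22 and 10.7 FPKM. ASNS, which makes asparagine from aspartate and is a classical ATF4 target, was at only 0.782 FPKM, above 4.44% of tested protein-coding genes, and it is the gene whose printed promoter holds the ATF4 motif. Its value rested on 58 to 73 reads per library, against 2082 to 5274 for PSAT1, ATF4, TRIB3, DDIT4 and SHMT2.

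Between the groups, 6 of the 10 genes fell in TP53INP2_OE and none rose (limma on log2(FPKM + 1), Benjamini-Hochberg adjusted over all 14791 tested genes, threshold 0.05). Of all tested genes, 18.6% fell and 16.4% rose by the same rule. The genes that fell were ATF4, DDIT3, TRIB3, DDIT4, PHGDH and SHMT2, and their TP53INP2_OE means were 0.701 to 0.853 of the NC means. All 6 have a transcript GC content above the median of tested genes, 48.0%. Of all tested genes at or above that median, 35.5% fell and 2.28% rose. The 10 genes were also chosen with earlier results of these data known. SESN2, ASNS, PSAT1 and PSPH did not pass. The median log2 fold change of the members was -0.22, against 0.00 over all tested genes. In the same 6 genes every TP53INP2_OE library lay below every NC library. Such separation downward was seen in 25.6% of tested genes and upward in 25.2%. For a single gene the exact two-sided permutation test of 3 against 3 libraries cannot give less than p = 0.1, and these 6 genes each gave that value.

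**Figure D1:**
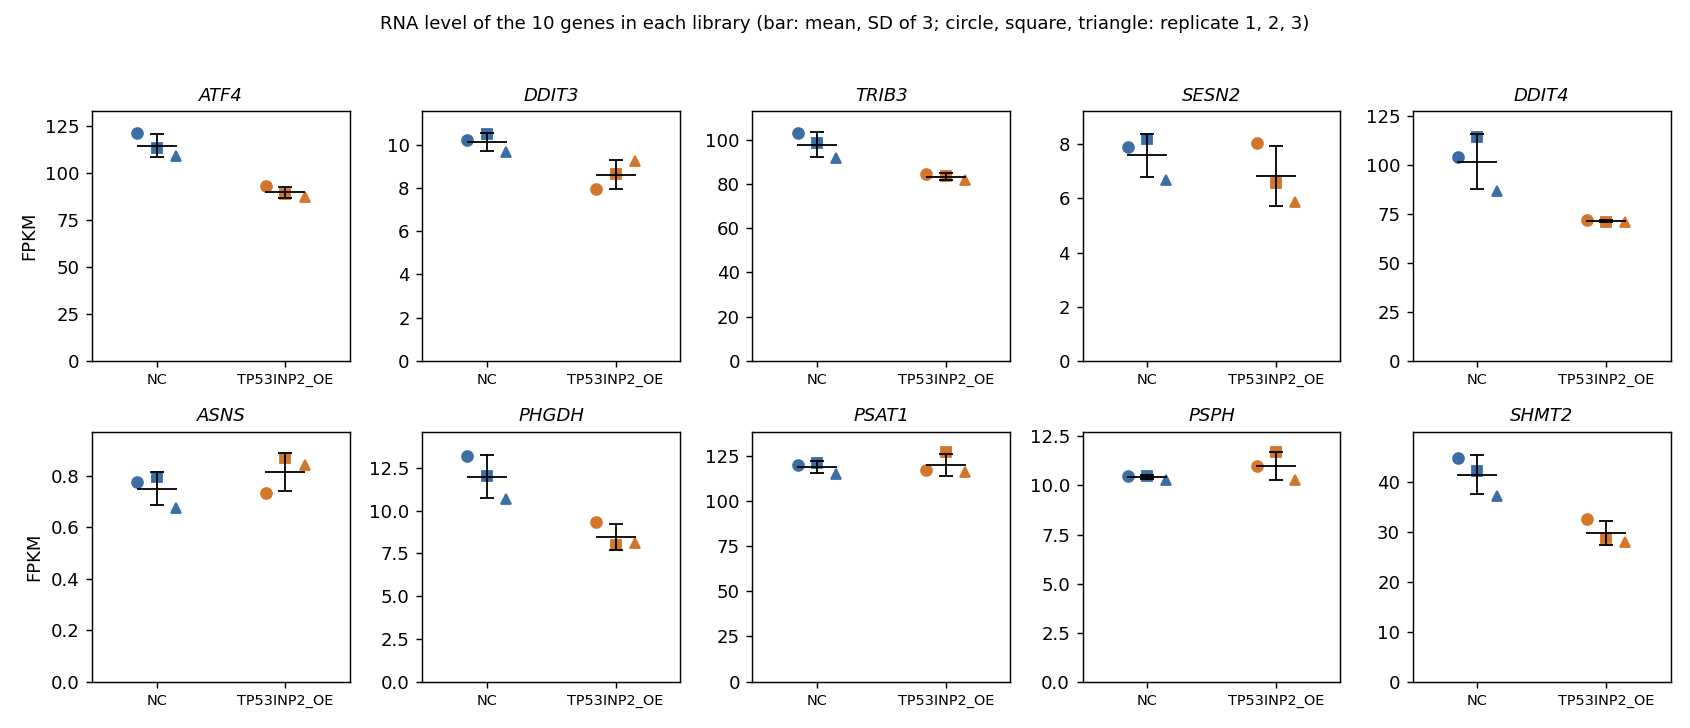
FPKM of each of the 10 genes in the 3 NC (blue) and 3 TP53INP2_OE (orange) libraries, with the mean and SD of 3 libraries in black and every axis starting at 0. ATF4, DDIT3, TRIB3, DDIT4, PHGDH and SHMT2 have all orange points below all blue ones, while the groups overlap for SESN2, ASNS, PSAT1 and PSPH.

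ATF4, the factor that gives the response its name (chromosome 22, positions 39519695 to 39522685 on GRCh38), was at 121, 113 and 109 FPKM in NC and at 92.9, 88.8 and 87.0 FPKM in TP53INP2_OE. The groups did not overlap. The means were 114 ± 6.25 and 89.6 ± 3.01 FPKM (SD, n = 3 each), a log2 fold change of -0.35 (standard error 0.05; limma, adjusted p = 0.0038). Processed pseudogenes of ATF4 are listed, of which ATF4P3 had 3 to 18 reads per library against 3549 to 5017 for ATF4 itself. The protein-coding genes whose profile over the 6 libraries was nearest to that of ATF4, out of 6903 with at least 5 FPKM, were RPLP2, a ribosomal stalk protein, C20orf27 and ASF1B, a histone chaperone. Their root mean square distances were 0.0175, 0.0176 and 0.0209 on the log2 scale. The GC contents of these 3 genes were 60.6%, 65.3% and 58.4%, and their log2 fold changes -0.34, -0.33 and -0.38.

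DDIT3 encodes CHOP, a bZIP protein that acts with ATF4 and promotes cell death under lasting stress. It was at 10.2, 10.5 and 9.66 FPKM in NC and at 7.94, 8.64 and 9.25 FPKM in TP53INP2_OE, with a gap between the groups that was smaller than the range within TP53INP2_OE. DDIT3 fell by 0.21 on the log2 scale (standard error 0.06; limma, adjusted p = 0.0365). The call was lost without NC replicate 1 (adjusted p = 0.102), NC replicate 2 (0.116), TP53INP2_OE replicate 1 (0.0802) or TP53INP2_OE replicate 2 (0.0819), and DDIT3 passed in 5 of the 14 alternative settings that leave GC content aside. DDIT3 rested on 168 to 244 reads per library and overlaps MARS1, the methionyl-tRNA synthetase gene on the opposite strand, which had 4487 to 5423 reads and itself fell by 0.14 on the log2 scale (limma, adjusted p = 0.0237). The call on MARS1 was lost without either of NC replicates 1 and 2 or of TP53INP2_OE replicates 1 and 2 (adjusted p up to 0.0828), and with GC content and length corrected for, as described further on, MARS1 was at -0.03 (0.538). MBD6, also on the opposite strand, overlaps DDIT3 as well. MBD6 had 501 to 760 reads and fell by 0.32 on the log2 scale (limma, adjusted p = 0.0105), and was at -0.04 (0.614) with the same correction. Reads in the shared stretches cannot be told apart, since the use of strand in counting is unknown. The nearest profiles to DDIT3 were those of TLE1, a transcriptional corepressor, AGBL5 and ATP6V1F, a proton pump subunit, at distances of 0.0277 to 0.036.

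TRIB3, a pseudokinase that ATF4 and CHOP induce and that restrains both, was at 103, 98.3 and 91.7 FPKM in NC and at 84.7, 83.4 and 81.8 FPKM in TP53INP2_OE. It fell by 0.22 on the log2 scale (standard error 0.05; limma, adjusted p = 0.0121). Its paralogs did not share a direction: TRIB1 rose from 43.5 ± 3.09 to 51.0 ± 1.19 FPKM and TRIB2 fell from 29.3 ± 1.49 to 24.2 ± 0.828 FPKM (SD, n = 3 each; limma, adjusted p = 0.0181 and 0.0076). The call on TRIB1 was lost without NC replicate 1, NC replicate 3 or TP53INP2_OE replicate 3 (adjusted p up to 0.058). TRIB1 and TRIB2 are named here after their values were seen.

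SESN2 and DDIT4 are stress-induced inhibitors of the growth kinase complex mTORC1, SESN2 as a leucine sensor and DDIT4 (REDD1) through the TSC complex. DDIT4 was at 104, 114 and 86.4 FPKM in NC and at 71.8, 70.8 and 71.0 FPKM in TP53INP2_OE, a tight group below 3 more widely spread controls. It fell by 0.50 on the log2 scale (standard error 0.09; limma, adjusted p = 0.00906), close to PHGDH and SHMT2, which fell further than DDIT4 without NC replicate 2 (-0.41 for DDIT4) or without TP53INP2_OE replicate 1. SESN2 was at 7.89, 8.21 and 6.68 FPKM in NC and at 8.05, 6.59 and 5.88 FPKM in TP53INP2_OE. These groups overlapped, and the log2 fold change of -0.14 (standard error 0.11) did not pass (limma, adjusted p = 0.398). DDIT4L, the paralog of DDIT4, was listed at 0 in all 6 libraries, as was the antisense gene DDIT4-AS1.

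ASNS was at 0.777, 0.796 and 0.676 FPKM in NC and at 0.732, 0.868 and 0.844 FPKM in TP53INP2_OE. The groups overlapped (log2 fold change 0.05, standard error 0.10; limma, adjusted p = 0.718). Its pseudogene ASNSP1 was at a level of the same order, 0.509 ± 0.206 and 0.457 ± 0.272 FPKM (SD, n = 3 each), so reads shared between the copies could matter for ASNS.

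The 3 serine synthesis enzymes did not move together. PHGDH, the first, was at 13.2, 12.0 and 10.7 FPKM in NC and at 9.35, 7.99 and 8.08 FPKM in TP53INP2_OE, and it fell by 0.45 on the log2 scale (standard error 0.09; limma, adjusted p = 0.00904). PSAT1, the aminotransferase of the second step, was at 120, 121 and 115 FPKM in NC and at 117, 127 and 116 FPKM in TP53INP2_OE, with overlapping groups. The log2 fold change of PSAT1 was 0.01 (standard error 0.04; limma, adjusted p = 0.842). PSPH, the phosphatase that releases serine, was at 10.5, 10.5 and 10.3 FPKM in NC and at 11.0, 11.7 and 10.3 FPKM in TP53INP2_OE, again overlapping (log2 fold change 0.06, standard error 0.05; limma, adjusted p = 0.378).

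The difference between the enzymes was measured within each library. The ratio of PHGDH to PSAT1, both in FPKM, was 0.11, 0.099 and 0.0937 in NC and 0.08, 0.0631 and 0.0696 in TP53INP2_OE. The ratio of PHGDH to PSPH was 1.26, 1.14 and 1.04 in NC and 0.853, 0.682 and 0.787 in TP53INP2_OE. Both ratios separated the groups without overlap, by -0.51 and -0.57 on the log2 scale, with the smallest exact two-sided permutation p that the design allows (0.1 for each of the 2 ratios). PSPHP1, an unprocessed pseudogene of PSPH, rose from 17.1 ± 2.16 to 27.7 ± 4.57 FPKM (SD, n = 3 each; limma, adjusted p = 0.0121) on 68 to 138 reads per library, while PSPH had 460 to 555. After the GC and length correction described below, PSPHP1 was at 0.51 and did not pass (limma, adjusted p = 0.0836). The value of each of these near copies is uncertain, since the way the counting divided reads between them is unknown.

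SHMT2, the mitochondrial serine hydroxymethyltransferase, was at 44.9, 42.3 and 37.3 FPKM in NC and at 32.5, 28.8 and 28.0 FPKM in TP53INP2_OE. It fell by 0.47 on the log2 scale (standard error 0.08; limma, adjusted p = 0.00706), and the groups did not overlap. SHMT1, its cytosolic counterpart, fell as well, from 5.98 ± 0.366 to 4.14 ± 0.267 FPKM (SD, n = 3 each; log2 fold change -0.44; limma, adjusted p = 0.00414). The ratio of SHMT2 to SHMT1 averaged 6.98 ± 1.02 over the NC libraries and 7.20 ± 0.605 over the TP53INP2_OE libraries (SD of 3), and its groups overlapped (exact two-sided permutation p = 0.8). Of the 6903 candidates, SHMT2 had the profile nearest to PHGDH, at a distance of 0.021, followed by MRPL52, a mitochondrial ribosomal protein, at 0.0261 and SERF2 at 0.0316.

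GC content moved with these results and is given beside them. Log2 fold change and transcript GC content had a Spearman's rho of -0.677 over the 14548 tested genes with a known GC content, and of -0.539 over the 10 members (both across genes, which share the libraries and are not replicates). The members that fell had a GC content of 49.7% to 60.9%, against a median of 48.0% over tested genes, while PSAT1 had 42.3% and ASNS 47.0%. Among tested protein-coding genes in 20 groups of like GC content, the median log2 fold change was -0.219 in the group around 57.3% and 0.134 in the group around 42.5%. ATF4, DDIT3, DDIT4, PHGDH, SHMT2 and PSAT1 lay below the middle 50% of genes of like GC content. TRIB3, SESN2 and ASNS lay within it and above its median, and PSPH lay at its upper edge.

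**Figure D2:**
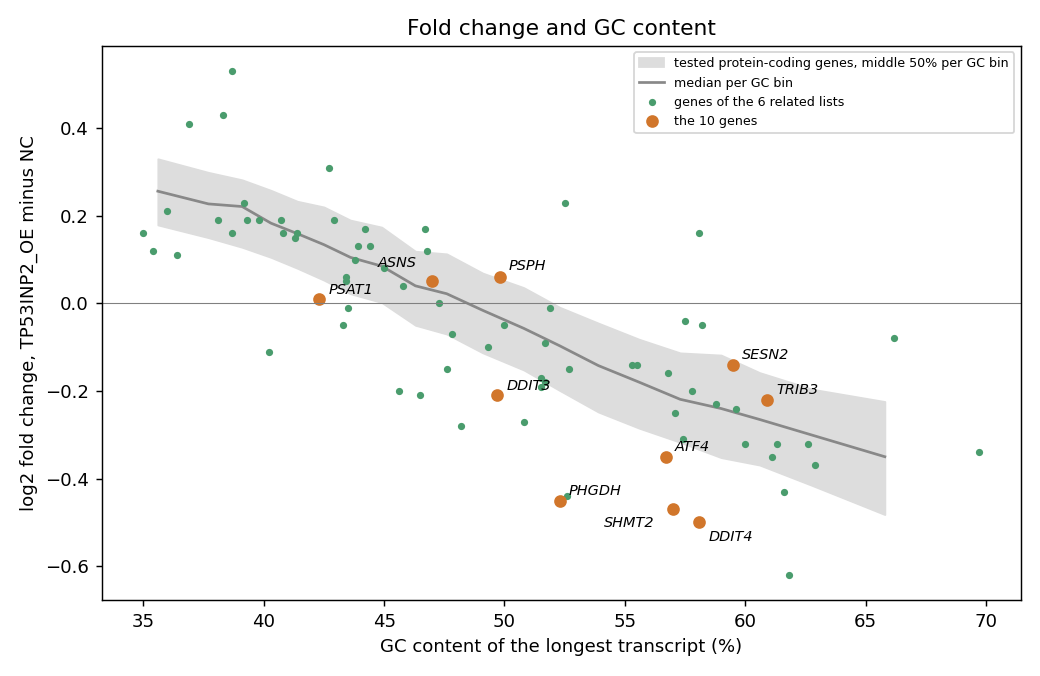
Log2 fold change (TP53INP2_OE minus NC) against GC content of the longest transcript for the 10 genes (orange, named) and the tested genes of 6 related lists (green), over the median (line) and middle 50% (band) of tested protein-coding genes in 20 GC bins. PHGDH, SHMT2 and DDIT4 lie well under the band and ATF4 and DDIT3 just under it, TRIB3 and SESN2 lie in its upper part, and PSAT1 lies under it at a log2 fold change of 0.01.

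With the trend on GC content and length removed from each library, 1 of the 10 genes fell and none rose, where 5.88% of 14548 tested genes fell and 4.53% rose. The gene was PHGDH, at -0.38 on the log2 scale (standard error 0.08; limma, adjusted p = 0.0292). It did not keep that call when NC replicate 1, NC replicate 2, TP53INP2_OE replicate 2 or TP53INP2_OE replicate 3 was left out as well (adjusted p up to 0.0918). SHMT2 and ATF4 were at -0.27 and -0.15 and missed the threshold (limma, adjusted p = 0.0525 and 0.0535). DDIT4 was at -0.27 (0.103) and DDIT3 at -0.17 (0.123). TRIB3 changed sign, to 0.05 (standard error 0.04; limma, adjusted p = 0.509), as did SESN2, to 0.11, and PSAT1, to -0.10. The ratio of PHGDH to PSAT1 differed by -0.28 and that of PHGDH to PSPH by -0.49 on the corrected log2 scale, both still without overlap between the groups. The corrected ratios used log2(FPKM + 1), while the uncorrected -0.51 and -0.57 used log2 FPKM. The sizes before and after are therefore not directly comparable. A correction of this kind removes every change tied to GC content, whatever its source.

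**Figure D3:**
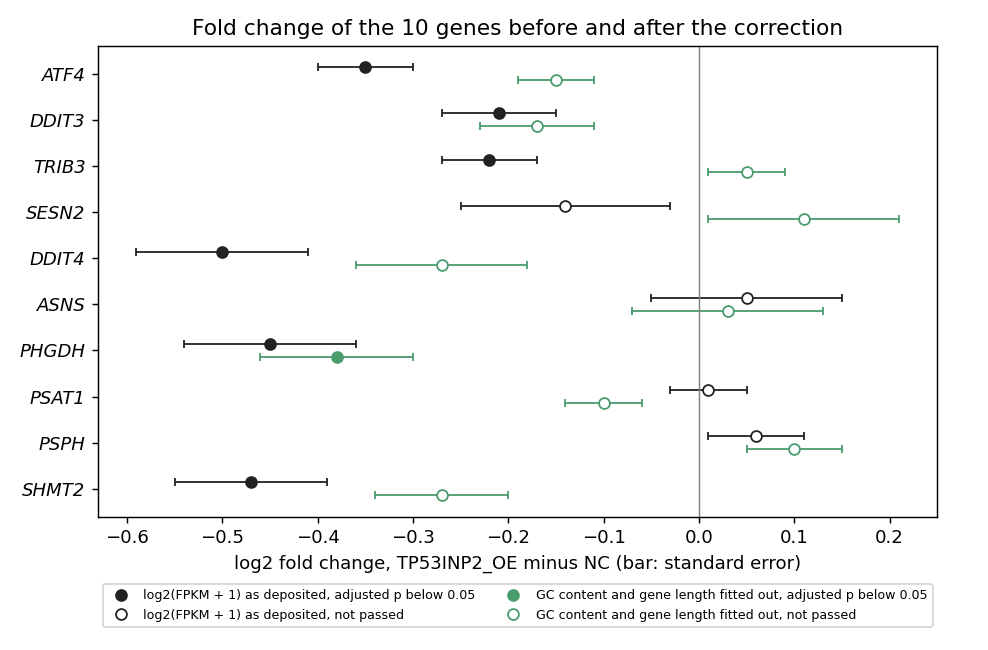
Log2 fold change of the 10 genes with its standard error, before (black) and after (green) the GC and length correction; filled points have an adjusted p below 0.05. Of 6 filled black points, only that of PHGDH has a filled green counterpart, and TRIB3 moves from -0.22 to 0.05.

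The spread within the control group was shared by the members. All 10 had their lowest NC value in NC replicate 3, where 36.5% of all tested genes did. With GC content and length fitted out it was 9 of the 10, all but PSPH, where 34.8% of tested genes did. The median deviation of the members in that library from the NC mean was -0.077 on the log2 scale as deposited and -0.063 after the correction, against -0.002 and 0.000 over all tested genes. The 68 tested genes of the 6 related lists, described below, leaned the same way but less strongly. Of these 68 genes, 39 (57.4%) were lowest in NC replicate 3 as deposited and 34 after the correction. Their median deviations in that library were -0.029 and -0.024. Among the members, DDIT4, SESN2, SHMT2 and PHGDH deviated most, by -0.222, -0.158, -0.145 and -0.140. CHAC1, a glutathione-degrading ATF4 target named here after its values were seen, was at 12.6 and 12.4 FPKM in NC replicates 1 and 2 and at 7.39 FPKM in NC replicate 3. The TP53INP2_OE values of CHAC1 were 7.71, 7.69 and 9.26 FPKM, so that NC replicate 3 lay below all of them (limma, adjusted p = 0.231). Of the 6 fits with a library left out, CHAC1 passed as lower in 1, the fit without NC replicate 3 (limma, adjusted p = 0.0125). After the GC and length correction CHAC1 was at -0.02 (limma, adjusted p = 0.95). Without NC replicate 3 the same number of members fell (6 of 10), with log2 fold changes of -0.61 for DDIT4, -0.54 for SHMT2 and -0.52 for PHGDH. Leaving out the lowest control raises the NC mean of CHAC1 and of each member, so larger falls follow from that choice and are no separate support. In TP53INP2_OE, 6 of the 10 members were lowest in replicate 3 (30.8% of all tested genes) and 6 were highest in replicate 1 (34.9%), namely ATF4, TRIB3, SESN2, DDIT4, PHGDH and SHMT2. After the correction 7 were lowest in replicate 3 (34.1%) and 3 were highest in replicate 1 (33.4%).

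**Figure D4:**
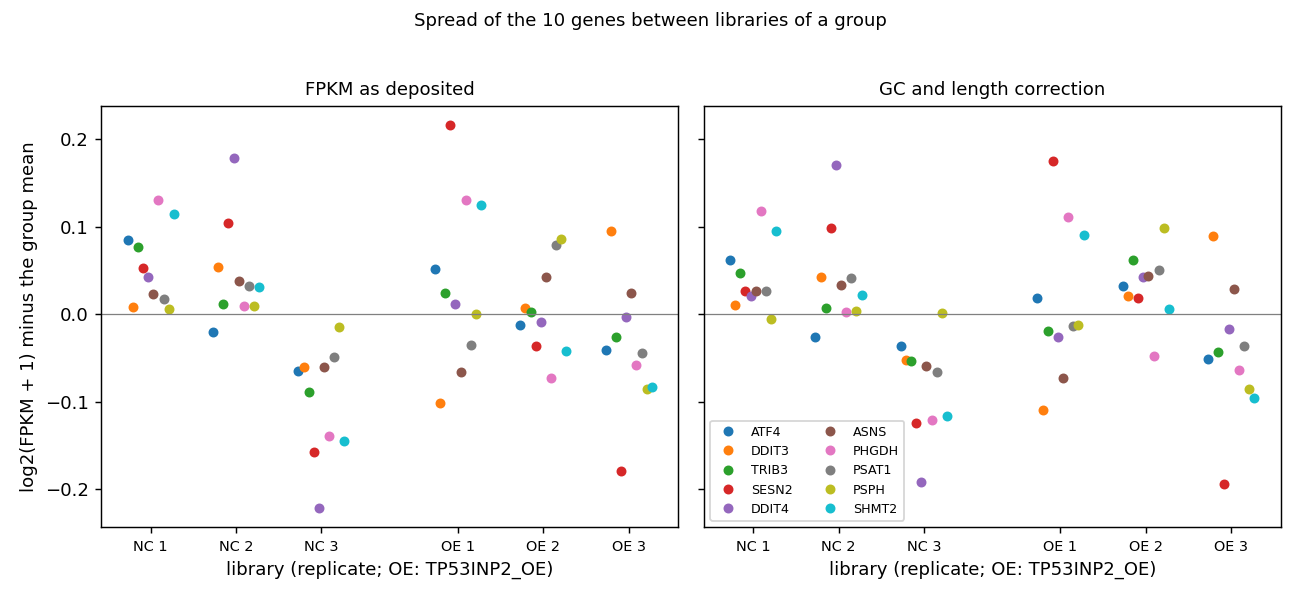
Deviation of each of the 10 genes (1 colour per gene) from its group mean in every library, on the log2(FPKM + 1) scale, as deposited (left) and after the GC and length correction (right). All 10 points of NC replicate 3 lie below 0 on the left, and 9 of 10 do on the right.

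Upstream of ATF4 stand the kinases that phosphorylate eIF2, the phosphatase subunits that reverse it, and OMA1 and DELE1, which relay mitochondrial stress to them. With EIF2S1, the eIF2 subunit that is phosphorylated, they make a list of 9 genes, all tested. Of these, 1 rose, EIF2S1, and none fell, with a median log2 fold change of 0.05, beside 16.4% and 18.6% of all tested genes. The number that rose was 3 in each of 4 alternatives (voom on recovered reads, a filter at 5 FPKM, quantile normalization, TPM), and 2 fell with voom. EIF2S1, the phosphorylated subunit itself, rose from 32.7 ± 0.823 to 38.5 ± 1.99 FPKM (SD, n = 3 each; limma, adjusted p = 0.011). EIF2AK1, the heme-regulated kinase that also relays mitochondrial stress, was at 28.5 ± 0.324 and 31.0 ± 1.44 FPKM (limma, adjusted p = 0.0691). EIF2AK1 passed in those 4 alternatives (adjusted p = 0.0248 to 0.0479) and without TP53INP2_OE replicate 3 (0.0324). After the GC and length correction none of the 9 passed. Of 8 tested partner and related transcription factors, 3 rose and 1 fell. With a library left out 1 or 2 rose: CEBPG passed in none of the 6 such fits (adjusted p = 0.0685 to 0.124), and CREB1 was lost without NC replicates 1 or 2 or TP53INP2_OE replicates 2 or 3 (up to 0.0928). ATF5, a bZIP factor of the mitochondrial stress response, fell by 0.32 on the log2 scale, and ATF2, CREB1 and CEBPG rose by 0.41, 0.21 and 0.13. None of these 8 passed after the correction, where ATF2 was at 0.20 (limma, adjusted p = 0.057) and CREB1 at -0.02.

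Of 17 other tested genes listed as ATF4 targets 4 rose and 4 fell (median -0.10), shares near those of all tested genes (16.4% and 18.6%). This list includes paralogs of members: TRIB1, among those that rose, TRIB2, among those that fell, and SESN1, which did not pass. With a library left out 2 to 5 rose and 3 to 5 fell, the number that rose being 2 without NC replicate 1, and with voom 7 fell. PYCR1, the last enzyme of proline synthesis, fell from 27.1 ± 1.97 to 17.3 ± 1.22 FPKM (SD, n = 3 each; log2 fold change -0.62; limma, adjusted p = 0.0029). PCK2, the mitochondrial phosphoenolpyruvate carboxykinase, and GDF15, a stress-induced secreted factor at 1.28 FPKM in NC, fell by 0.43 and 0.37. At its low level the fall of GDF15 depends on the scale: its log2 fold change was -0.678 with a pseudocount of 0.1 and -0.738 with voom, beyond that of PYCR1 there, and its call was lost in each of the 6 fits with a library left out (adjusted p = 0.0548 to 0.117). ERO1A, an oxidase of the endoplasmic reticulum, rose from 37.8 ± 2.43 to 54.8 ± 4.18 FPKM. With GC content and length fitted out 2 of the 17 rose and 2 fell. These were ERO1A at 0.33, TRIB1 at 0.32, PYCR1 at -0.33 and TRIB2 at -0.21, while PCK2 (-0.16) and GDF15 (-0.07) no longer passed. With the correction and a library left out, none rose without NC replicates 1 or 3 or TP53INP2_OE replicates 2 or 3. In such fits none fell without NC replicate 1, and 1 or 2 fell without another library.

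Amino acid transporters of the program had 3 of 12 genes higher and 6 lower (median -0.10), beside 16.4% and 18.6% of all tested genes. Without NC replicate 1 or NC replicate 2 none rose and 3 fell, without TP53INP2_OE replicate 2 or 3, 1 rose and 3 fell, and without TP53INP2_OE replicate 1, 1 rose and 5 fell. Without NC replicate 3, 2 rose and 4 fell. SLC7A5 and SLC3A2, which together form a leucine exchanger, fell from 172 ± 9.77 to 135 ± 2.98 FPKM and from 52.8 ± 3.10 to 42.5 ± 2.51 FPKM (SD, n = 3 each; limma, adjusted p = 0.00366 and 0.00948). SLC1A5, a glutamine transporter, and SLC6A9, a glycine transporter, fell by 0.32 and 0.24, the call on SLC6A9 being lost without any 1 library but NC replicate 3 (adjusted p up to 0.0929). After the correction 1 of the 12 passed. It was SLC1A4, a transporter of serine and alanine named here after its values were seen, at -0.25 (limma, adjusted p = 0.0379). Uncorrected, its call was lost without any 1 library but TP53INP2_OE replicate 1 (adjusted p up to 0.0947). With the correction and any 1 library left out as well, none of the 12 passed. The corrected values were -0.08 for SLC7A5, -0.11 for SLC3A2, -0.05 for SLC1A5 and 0.00 for SLC6A9.

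Among folate and glycine genes around SHMT2, 2 of 14 tested genes rose and 2 fell (median -0.05), near the shares of all tested genes (16.4% and 18.6%). With a library left out 1 or 2 rose and 1 to 3 fell. Besides SHMT1, SFXN3, a serine carrier of the mitochondrial membrane, fell by 0.14. MTHFD2, the mitochondrial folate dehydrogenase that acts after SHMT2, rose from 40.3 ± 1.44 to 45.2 ± 1.58 FPKM (SD, n = 3 each; limma, adjusted p = 0.0265), and DLD, a subunit of the glycine cleavage system, rose by 0.19. MTHFD2 lost its call without NC replicates 2 or 3 or TP53INP2_OE replicates 2 or 3 (adjusted p up to 0.0733), and SFXN3 without NC replicates 1 or 2 or TP53INP2_OE replicate 3 (up to 0.0861). After the correction SHMT1 alone passed (log2 fold change -0.36; limma, adjusted p = 0.0195), while MTHFD2 and DLD were at 0.01 and 0.00 and SFXN3 turned to 0.01. With the correction, none of the 14 passed without NC replicate 1 or without TP53INP2_OE replicate 2. Of 8 tested serine-consuming genes 2 rose and 1 fell (median 0.07), again near the shares of all tested genes. SERINC1, of a family first described as serine incorporators, rose from 40.6 ± 0.348 to 55.0 ± 2.83 FPKM and kept its call after the correction (0.24). SERINC3 rose by 0.19 and PTDSS2, a phosphatidylserine synthase, fell by 0.25, and both lost their call. Uncorrected, SERINC3 lost it without NC replicates 1 or 3 or TP53INP2_OE replicates 1 or 2 (adjusted p up to 0.0942) and PTDSS2 without NC replicates 1 or 2 (up to 0.0813). With the correction and without NC replicate 1, none of the 8 serine-consuming genes passed.

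Across the 6 lists, the direction divided by GC content. Of the 32 tested genes at or above the median GC content of 48.0%, 13 fell and 1 rose, and of the 36 below it 14 rose and 1 fell. All tested genes divided in the same way: 35.5% fell and 2.28% rose at or above the median, and 30.6% rose and 2.23% fell below it. After the correction 3 of these 68 genes rose and 4 fell, beside 4.53% and 5.88% of all tested genes, so the lists' counts are close to the background.

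**Figure D5:**
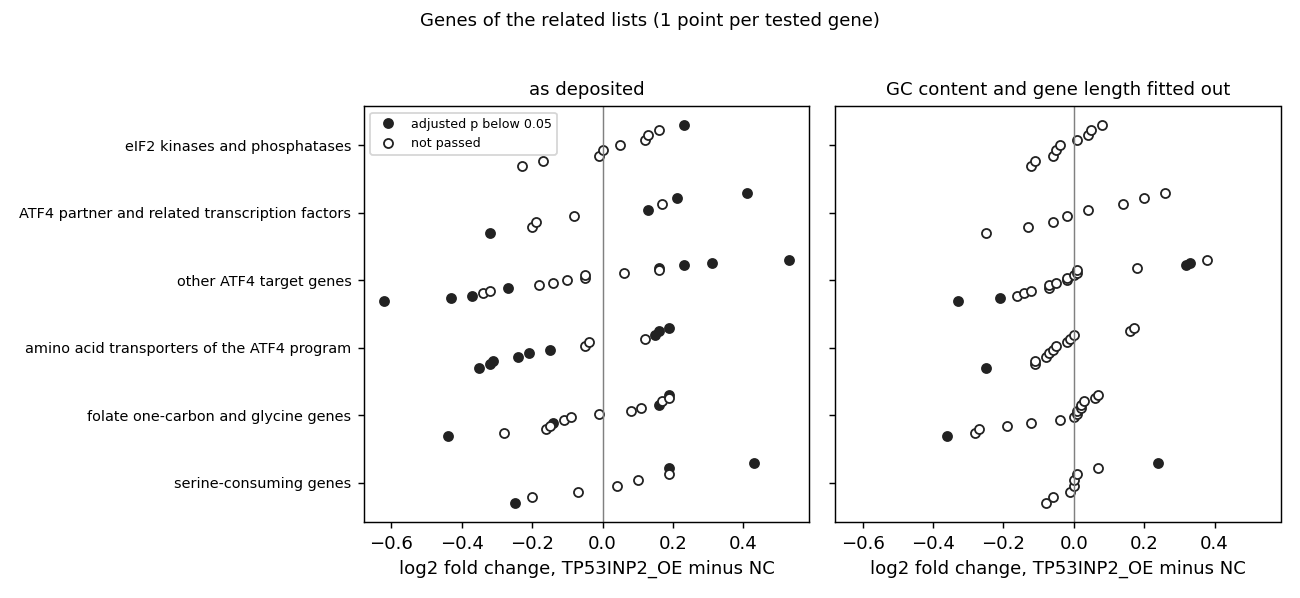
Log2 fold change (TP53INP2_OE minus NC) of each tested gene of the 6 related lists, as deposited (left) and after the GC and length correction (right), with filled points for an adjusted p below 0.05. The left panel holds 15 filled points above 0 and 14 below, and the right panel 3 and 4.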

How the data were processed

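The table deposited by the authors holds FPKM per gene, with gene length and position (file header). Bowtie 0.12.2 and 2 builds, GRCh38 and mm8, are listed without roles in the submitters' processing notes, and the read assignment was not given in the sources used here. Of the gene IDs 96.2% were found in GENCODE release 29 on GRCh38, 99.92% of them on the same chromosome. FPKM times gene length gave whole multiples of 1 step for 100% of values above 0 (tolerance 0.01), taken as reads.

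Values were tested as log2(FPKM + 1) with limma 3.58.1 in R 4.3.3 (empirical Bayes with trend, Benjamini-Hochberg over all tested genes, threshold 0.05). Fold changes on this scale understate those of low genes, and with ASNS below 1 FPKM its fold change is compressed most. A count test, the first choice had counts been deposited, was not used for the main result, since the deposited values are FPKM. The recovered reads entered only 1 alternative, limma voom, which called 6143 genes against 5183. The limma step on log2(FPKM + 1) was tested on simulated data. The GC and length correction took the deviations of a library from the gene means, fitted natural splines to them on GC content (longest GENCODE transcript) and log2 gene length with 5 degrees of freedom for each, and subtracted the fit. Alternatives were a pseudocount of 0.1, no filter, a filter at 5 FPKM, TPM, quantile normalization, limma voom on recovered reads, protein-coding genes, the replicate number as a block, and leaving out each library. The correction without each library was added after seeing the data.

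The members and the gene lists were chosen with earlier results of these data known. Named were all members and, from each list, up to 4 called genes by size of change, or the 2 highest expressed where fewer than 2 passed. Likeness used the distance between profiles of log2(FPKM + 1) minus the gene mean, without the GC and length correction. It therefore includes the difference between the groups and its relation to GC content, and whether near genes share a regulator was not tested. Libraries of a group were not the same within sampling noise (chi-square per degree of freedom 2.48 to 4.6 within groups).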

Additional observations from a re-analysis of the deposited data

How the results depend on the processing

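In every alternative without the GC and length correction, no member rose and ATF4, TRIB3, DDIT4, PHGDH and SHMT2 fell. With the correction the number of members that fell went from 6 to 1, or to 2 with the replicate block as well, and the number of genes called in all went from 5183 to 1514, or 668 with the block. Leaving out 1 library gave between 0 and 6 members that fell and between 201 and 4779 genes called, the low ends with the correction; without NC replicate 1 and uncorrected, 3276 genes were called. TRIB3 turned to 0.046 with the correction (also with the block; -0.269 to 0.070 with a library left out), SESN2 to 0.109 and PSAT1 to -0.104, CREB1 to -0.015, SLC6A9 to 0.000 and SFXN3 to 0.013. With a library left out the lowest and highest values were -0.245 and 0.206 for SESN2, -0.137 and 0.036 for PSAT1, and -0.004 and 0.086 for ASNS. The cause was not tested. DDIT3 was called in 5 of 16 alternatives and was also lost with no filter, TPM, quantile normalization and voom, and the block alone (4396 genes called) ended only its call among the members (adjusted p = 0.0724). Whether replicate numbers pair the samples could not be settled. Deviations of same-numbered libraries correlated at 0.0107 to 0.017, and those of different numbers at -0.0272 to 0.015. NC replicates 1 and 2 correlated best with their own number and NC replicate 3 with another. Correlations this small over all genes cannot show whether a culture or batch was shared. ASNS had no value at the filter of 5 FPKM. At 58 to 73 reads, ASNS could not show small differences.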
